A study of Mus musculus with 6 samples.

Results

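Toll-like receptors are the pattern recognition receptors with which macrophages sense microbial and self-derived molecules. The receptors were taken as 10 listed mouse genes, Tlr1 to Tlr9 and Tlr13, and each was read from a probe set whose platform annotation names that gene alone. Of these, 9 were measured among 19938 genes in all, and Tlr5, the flagellin receptor gene, had no probe set named here. Their intensities were compared between starry-sky tumor-associated macrophages (SS-TAMs) and germinal center macrophages (GCMs), 3 mice and 3 arrays each, to ask how macrophages that meet apoptotic lymphoma cells differ from those that clear apoptotic B cells of a normal response. SS-TAMs were cut by laser from BL2 tumors, made with a cell line of human Burkitt's lymphoma that was grown under the skin of female Balb/c SCID mice to 1.44 cm2 and stained for CD68. GCMs, also called tingible-body macrophages, were cut from germinal centers of female CSF1R EGFP transgenic Balb/c mice, in which the promoter of the Csf1r gene drives the reporter, after 2 doses of sheep red blood cells. All mice were 6 to 12 weeks old, and 1000 cells were captured from each. SCID mice lack mature T and B cells. Tumor, tissue, genetic background, transgene, immunization and the way the cells were found cannot be told apart in the comparison. The label for tissue names the spleen for GCMs, whereas their source label names lymph nodes.

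Toll-like receptors of the cell surface, Tlr1, Tlr2, Tlr4, Tlr5 and Tlr6, bind lipoproteins, lipopolysaccharide and flagellin, and Tlr2 acts in heterodimers with Tlr1 or Tlr6. Those of endosomes, Tlr3, Tlr7, Tlr8, Tlr9 and Tlr13, bind nucleic acids, reach their compartment with the chaperone Unc93b1 and need proteolytic cleavage by lysosomal proteases to signal. Both kinds signal through adaptor proteins, mainly Myd88, to NF-kB, AP-1 and interferon regulatory factors. In macrophages that engulf dying cells, nucleic acids of the cargo can reach the same endosomes.

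The sequences before the starts of these genes are shown for the called or most variable receptors that had an entry, because Tlr1, Tlr2 and Tlr8 were called and Tlr13 varied most among SS-TAMs. Entries of RefSeq (GRCm38.p6) matched 7 of the 9 measured receptors; Tlr4 and Tlr7 were not among them. Each run is the 250 bases before the annotated start, 5′ to 3′ on the strand of the gene, with matches in capitals to a PU.1-type site (GAGGAA) or the NF-kB consensus on either strand. Tlr1 is shown at chr5:64933559-64933808 (minus strand, the first of 2 listed starts), Tlr2 at chr3:83841609-83841858 (minus strand), Tlr8 at chrX:167264330-167264579 (minus strand) and Tlr13 at chrX:106143025-106143274 (plus strand).
Tlr1: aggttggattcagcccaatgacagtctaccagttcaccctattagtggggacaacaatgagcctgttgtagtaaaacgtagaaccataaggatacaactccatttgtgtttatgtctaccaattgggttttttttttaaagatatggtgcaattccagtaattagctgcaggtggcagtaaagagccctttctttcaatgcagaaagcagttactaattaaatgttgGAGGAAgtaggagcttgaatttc
Tlr2: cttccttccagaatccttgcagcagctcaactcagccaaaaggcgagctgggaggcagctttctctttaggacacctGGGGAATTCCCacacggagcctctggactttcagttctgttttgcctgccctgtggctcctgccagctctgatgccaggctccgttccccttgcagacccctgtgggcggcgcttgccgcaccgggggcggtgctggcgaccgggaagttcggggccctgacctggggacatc
Tlr8: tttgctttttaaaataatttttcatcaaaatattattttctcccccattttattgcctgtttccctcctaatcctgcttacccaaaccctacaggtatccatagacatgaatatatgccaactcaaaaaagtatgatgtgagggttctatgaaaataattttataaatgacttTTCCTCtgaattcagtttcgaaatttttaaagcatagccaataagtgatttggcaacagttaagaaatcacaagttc
Tlr13: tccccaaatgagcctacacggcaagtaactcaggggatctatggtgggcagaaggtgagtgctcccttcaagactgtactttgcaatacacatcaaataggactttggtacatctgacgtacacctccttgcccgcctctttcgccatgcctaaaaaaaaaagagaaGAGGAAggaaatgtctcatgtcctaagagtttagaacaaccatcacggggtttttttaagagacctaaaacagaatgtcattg
Tlr2 held 2 NF-kB matches that overlap, with first bases at -173 and -172 from the start, and Tlr3, which was not called, held 1 at -211 that is not shown. The PU.1-type letters began at -23 in Tlr1, at -77 in Tlr8 (on the opposite strand) and at -83 in Tlr13, and also at -112 in Tlr9, which held an AP-1 match (TGANTCA) at -58 that is not shown. At the first of its 2 listed starts, Tlr6 held 2 overlapping matches to the interferon-stimulated response element, both on the opposite strand, at -116 and -110, also not shown. The second listed starts of Tlr1 and Tlr6 held a match to none of these motifs. Of 32851 windows of the same length, 23.3% held the PU.1-type letters, 3.9% an NF-kB match, 6.75% an AP-1 match and 2.98% a match to the interferon-stimulated response element. These matches are descriptions of the letters only.

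Tlr2, Tlr4 and Tlr8 rose in SS-TAMs and Tlr1 fell, while the other 5 measured receptors did not pass the test, in each case with the arrays as deposited; with arrays scaled to core macrophage markers, the fitted differences of Tlr2, Tlr3, Tlr6, Tlr7 and Tlr9 were below 0. Log2 intensity of each gene was tested with limma, and a call needed a p under 0.05 after Benjamini-Hochberg adjustment across 19938 genes. The share of all genes called higher was 5.16%, the share called lower was 4.74%, and 9.9% were called in either direction, against 3 higher and 1 lower of 9 receptors. The median log2 fold change (SS-TAM minus GCM) was 0.89 over the 9 receptors and 0.04 over all genes, and the receptors' median was 0.61 with Tlr4, Tlr7 and Tlr8 at the lower bounds given with each of them. The arrays of the groups did not overlap for 7 receptors, 6 of them with every SS-TAM array above every GCM array and 1 below. Over all genes the arrays did not overlap for 30.1%, with SS-TAMs above for 18.5% and below for 11.5%. The 3 receptors called higher also changed by at least 2-fold, and of all 19938 genes 279 were called higher at that fold. In either direction, a call with at least 2-fold held for 3.76% of all genes. In captured tissue, fewer macrophages among the cells and less RNA per macrophage cannot be told apart. No detection calls were used, so a low-signal limit was set on each array at the 95th percentile of 1210 probe sets for olfactory and vomeronasal receptor genes, which came to 8.36 to 8.5 intensity units for SS-TAMs and 7.96 to 8.3 for GCMs. On all arrays of the group, 6 of the 9 receptors were above this limit in SS-TAMs and 4 in GCMs. Where no array of a group was above it, a fitted difference is one of measured values and not the size of a change, and the fold is given as a lower bound.

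**Figure D1:**
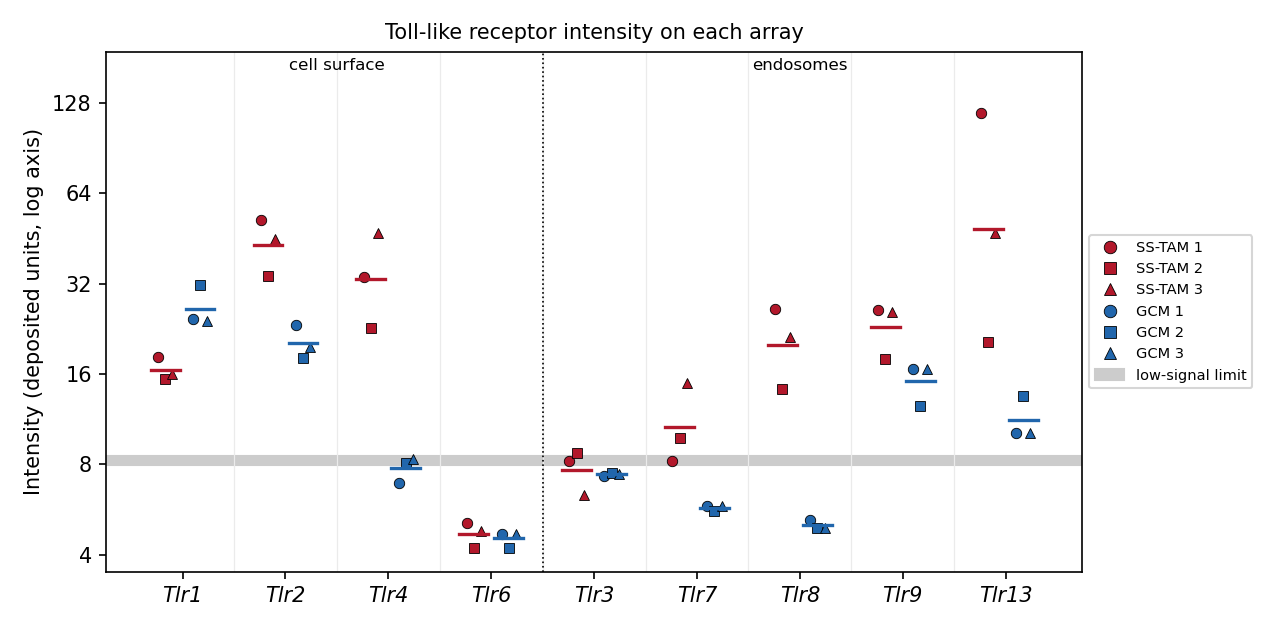
Deposited intensity (log axis) of the 9 measured Toll-like receptors on each array, cell-surface receptors left of the dotted line and endosomal receptors right of it; points are arrays, horizontal lines are geometric means of 3 arrays, SS-TAM left of GCM, and the gray band spans the low-signal limits. As deposited, SS-TAM points lie above GCM points for Tlr2, Tlr4, Tlr7, Tlr8, Tlr9 and Tlr13 and below them for Tlr1, and with arrays scaled to core macrophage markers the fitted differences of Tlr2, Tlr7 and Tlr9 were below 0.

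Among receptors of the cell surface, Tlr4 and Tlr2 rose and Tlr1 fell. Tlr4, the receptor for lipopolysaccharide, had intensities of 33.6, 22.8 and 47.1 in SS-TAMs, against 6.9, 8.1 and 8.3 in GCMs. All SS-TAM arrays were above the low-signal limit and no GCM array was. Its mean was 34.5 ± 12.2 in SS-TAMs and 7.77 ± 0.757 in GCMs (± SD, 3 arrays each), and the fitted log2 difference was 2.09 (SE 0.26, adjusted p = 0.0085 by limma). Because GCMs were not above the limit, the fold is given against the limit there, and SS-TAMs were at least 4.04-fold higher. The call held without any 1 array, with fitted differences of 1.84 to 2.36 and adjusted p up to 0.048, and the fitted difference was 0.57 with arrays scaled to core macrophage markers.

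Tlr2, the receptor for bacterial lipoproteins, had intensities of 52.2, 34.0 and 45.2 in SS-TAMs, against 23.2, 18.1 and 19.7 in GCMs. Every array was above the limit, and the lowest SS-TAM array was above the highest GCM array. Tlr2 averaged 43.8 ± 9.18 in SS-TAMs against 20.3 ± 2.61 in GCMs (± SD, 3 arrays each), 2.13-fold higher as deposited (log2 fold change 1.09, SE 0.18, limma adjusted p = 0.019) and -0.43 on the log2 scale with arrays scaled to core macrophage markers. The call was lost without SS-TAM replicate 3, GCM replicate 2 or GCM replicate 3, with adjusted p up to 0.087.

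Tlr1, the partner of Tlr2 for triacylated lipoproteins, ran the other way. It had intensities of 18.2, 15.4 and 16 in SS-TAMs, against 24.3, 31.6 and 24.0 in GCMs, with no overlap and all arrays above the limit. Tlr1 averaged 16.5 ± 1.47 in SS-TAMs and 26.6 ± 4.3 in GCMs (± SD, 3 arrays each), a log2 fold change of -0.68 (SE 0.13, limma adjusted p = 0.03). This call was at the edge of the threshold: it was lost on leaving out any 1 of the 6 arrays, with adjusted p between 0.051 and 0.091 and log2 fold changes of -0.75 to -0.55. Tlr6, the partner of Tlr2 for diacylated lipoproteins and the neighbor of Tlr1 on chromosome 5, had intensities of 5.1, 4.2 and 4.8 in SS-TAMs, against 4.7, 4.2 and 4.7 in GCMs. No array was above the limit, so the fitted difference of Tlr6 compares values at the low-signal level and is not read as a fold under any setting.

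The balance of the partners was also read within each array, where scaling between arrays cancels. The log2 ratio of Tlr2 over Tlr1 averaged 1.39 ± 0.21 in SS-TAMs and -0.39 ± 0.38 in GCMs (± SD, 3 arrays each), a difference of 1.77. Both receptors were above the limit on all arrays, and the arrays of the groups did not overlap. Because Tlr2 rose and Tlr1 fell without overlap, their ratio could not overlap either. The exact two-sided permutation p therefore had to be 0.1, the smallest that 3 arrays against 3 can give, and adds no test to those of the 2 genes. Of the 3 ratios computed, the other two involve a receptor that was not above the limit in GCMs and are not given.

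Among endosomal receptors, Tlr8 rose, Tlr7, Tlr9 and Tlr13 had every SS-TAM array above every GCM array without passing the test, and Tlr3 overlapped, all as deposited, whereas the fitted differences of Tlr3, Tlr7 and Tlr9 were below 0 with arrays scaled to core macrophage markers. Tlr8, in humans a receptor for single-stranded RNA, had intensities of 26.3, 14.2 and 21.2 in SS-TAMs, against 5.2, 4.9 and 4.9 in GCMs. Every SS-TAM array was above the limit and no GCM array was. Its mean was 20.6 ± 6.07 in SS-TAMs and 5.0 ± 0.173 in GCMs (± SD, 3 arrays each), with a fitted log2 difference of 2.0 (SE 0.22, limma adjusted p = 0.0059), and SS-TAMs were at least 2.44-fold higher against the limit. Without any 1 array the call held, with adjusted p up to 0.039, and with arrays scaled to core macrophage markers the fitted difference was 0.47.

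Tlr7, a receptor for single-stranded RNA and the neighbor of Tlr8 on the X chromosome, had intensities of 8.2, 9.8 and 14.9 in SS-TAMs, against 5.8, 5.6 and 5.8 in GCMs. Only SS-TAM replicates 2 and 3 were above the limit. It averaged 11.0 ± 3.5 in SS-TAMs and 5.73 ± 0.115 in GCMs, at least 1.3-fold higher against the limit, with 2 of 3 SS-TAM arrays measured above it (limma adjusted p = 0.059). It passed without SS-TAM replicate 1 or SS-TAM replicate 3, with the lowest adjusted p at 0.032.

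Tlr13, a receptor for bacterial ribosomal RNA, had intensities of 118.7, 20.5 and 47.3 in SS-TAMs, against 10.2, 13.5 and 10.2 in GCMs. All arrays were above the limit, the groups did not overlap, and the highest SS-TAM array was 5.79 times the lowest, the widest spread within a group among the 9 receptors. Tlr13 averaged 62.2 ± 50.8 in SS-TAMs and 11.3 ± 1.91 in GCMs (± SD, 3 arrays each), with a log2 fold change of 2.12 (SE 0.61, 95% interval 0.61 to 3.63, limma adjusted p = 0.093). It passed without SS-TAM replicate 2, at an adjusted p of 0.038, and its log2 fold change ran between 1.48 and 2.74 on leaving out 1 array.

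Tlr9, the receptor for unmethylated CpG DNA, had intensities of 26.2, 18.0 and 25.8 in SS-TAMs, against 16.6, 12.5 and 16.6 in GCMs. All arrays were above the limit and the groups did not overlap, with the lowest SS-TAM array only slightly above the highest GCM arrays. Its log2 fold change was 0.61 (SE 0.19, 95% interval 0.14 to 1.07, limma adjusted p = 0.11). Tlr3, the receptor for double-stranded RNA, had intensities of 8.2, 8.7 and 6.3 in SS-TAMs, against 7.3, 7.5 and 7.4 in GCMs. Of these arrays, SS-TAM replicate 2 alone was above the limit, so the fitted difference of Tlr3 compares values near the low-signal level and is not read as a fold under any setting.

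**Figure D2:**
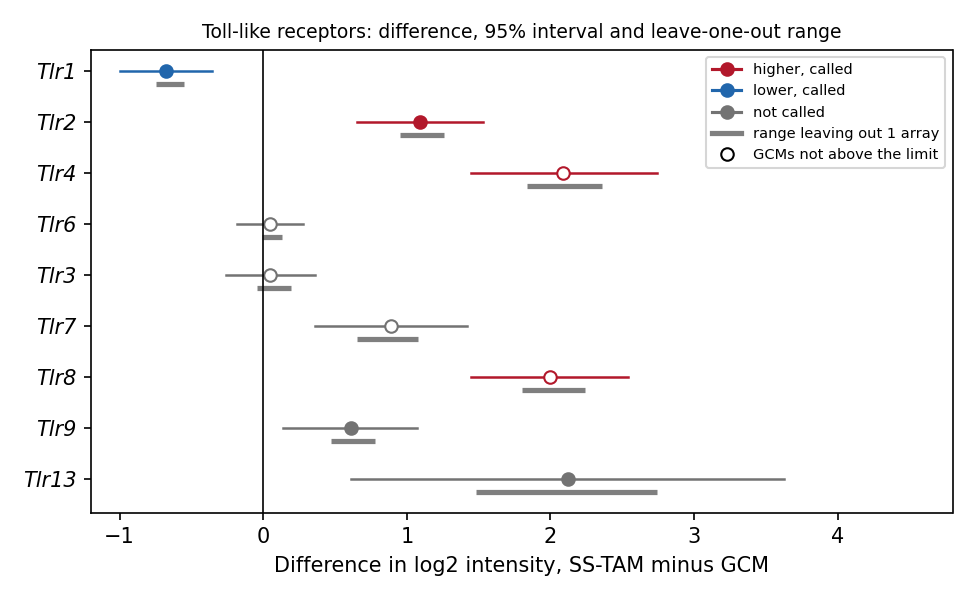
Estimated difference in log2 intensity, SS-TAM minus GCM, for each measured Toll-like receptor as deposited; points are limma estimates from 3 arrays a group, thin lines are 95% intervals, gray bars are the range on leaving out 1 array, color gives the call, and open points mark receptors above the low-signal limit on no GCM array, whose difference is not the size of a change. The interval of Tlr2 spans 0.65 to 1.53 and that of Tlr13 spans 0.61 to 3.63, and with arrays scaled to core macrophage markers the estimates of Tlr2, Tlr3, Tlr6, Tlr7 and Tlr9 were below 0.

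Markers of cell types moved with the comparison as well. Cd68 and the reporter of Csf1r chose the cells, so their levels are no finding and they are left out here. Of the other 19 measured core macrophage markers, 13 rose in SS-TAMs, against 5.16% of all genes, and their summed intensity was 2960 to 3800 in SS-TAMs against 1300 to 1580 in GCMs. Adgre1, the gene of F4/80, averaged 86.1 ± 18.9 intensity units in SS-TAMs and 5.03 ± 0.115 units in GCMs (± SD, 3 arrays each), with all GCM arrays under the limit. Of 14 measured T cell markers, 8 fell, against 4.74% of all genes, with summed intensity of 159 to 194 in SS-TAMs and 1150 to 1540 in GCMs. Cd3g was under the limit on every SS-TAM array. Of 14 B cell markers, 2 fell, against 4.74% of all genes, and the sum was 131 to 174 in SS-TAMs and 202 to 590 in GCMs. Among GCM arrays, 14 of 14 were highest on replicate 1, as were 49 of the 98 pathway genes described below, ties counted to the first array. The share of all genes highest on that GCM array is not given here, so neither count is set against a background. SCID hosts lack mature T and B cells, so lower T and B cell markers cannot be told apart from the host. The BL2 tumor cells were human, and their share of the captures was not measured with these mouse markers. Conventional dendritic cell markers had 5 of 10 lower, against 4.74% of all genes, with sums of 87.2 to 106 in SS-TAMs and 150 to 231 in GCMs. Only 2 were called with array weights and 1 with a replicate block, and Clec9a and Btla, among the 5, were under the limit on every array. Without any 1 array, 9 of these 13 core macrophage calls and 4 of the 8 T cell calls held, and 0 of the 2 B cell, 0 of the 5 dendritic cell and 0 of the 3 fibroblast and pericyte calls that limma made did. Fibroblast and pericyte markers had 3 of 13 higher, against 5.16% of all genes, with sums of 222 to 381 in SS-TAMs and 217 to 240 in GCMs. Of the 13, 10 were highest on replicate 1 among SS-TAM arrays. Of the 9 receptors, 6 were highest on replicate 1 among SS-TAM arrays, Tlr13 and Tlr2 among them, against 35.4% of all genes, and the 19 core macrophage markers were highest on replicate 1 for 10 and on replicate 3 for 9. Sums of plasmacytoid dendritic cell markers (74.5 to 86.6 in SS-TAMs, 73.0 to 82.7 in GCMs), neutrophil markers (69.1 to 70.9 in SS-TAMs, 65.3 to 69.1 in GCMs) and endothelial markers (94.7 to 98.1 in SS-TAMs, 96.0 to 113 in GCMs) lay close together, and 9 of 12 neutrophil markers were above the limit on no array. The part of these cells in the receptor differences was not tested.

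The genes whose pattern over the 6 arrays was most like that of each called receptor were named by Pearson's r of log2 intensity, as a description, since all 6 arrays share the group difference. For Tlr1 they were Cox14 (r = 0.998), Cd69 (r = 0.998), an early activation marker of lymphocytes, and Pdcd10 (r = 0.997). For Tlr2 they were 4932411N23Rik, which was under the low-signal limit on every array, Cd93, a receptor of phagocytes and endothelium, and Rbm15, each at r = 0.997. For Tlr4 they were Inf2 (r = 0.999), Ccdc85c (r = 0.999) and Paqr9 (r = 0.998). For Tlr8 they were Fcgr4 (r = 1.0 after rounding), an activating Fc receptor gene, Col5a1 (r = 0.999) and the taurine transporter gene Slc6a6 (r = 0.998). Col5a1 was above the limit on SS-TAM replicate 1 alone. Fcgr4 had intensities of 40.7, 17.7 and 31.2 in SS-TAMs, against 3.9, 3.5 and 3.6 in GCMs, the same order of arrays within SS-TAMs as Tlr8.

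Genes that work with the receptors were read from 6 lists, of which 98 of 105 genes were measured. In all, 13 rose and 3 fell in SS-TAMs, against 5.16% and 4.74% of all genes, and the median log2 fold change was 0.11 over the 98 genes and 0.04 over all genes. Of the 13 increases, 7 lay on the list of endosomal traffic and receptor processing, which had 13 measured genes and a median of 1.09. The median of the other lists lay between 0.03 and 0.12. With arrays scaled to core macrophage markers, 8 pathway genes were called higher and 87 lower, but of all 19938 genes 102 were called higher and 19655 lower. These counts are not comparable with those as deposited.

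**Figure D3:**
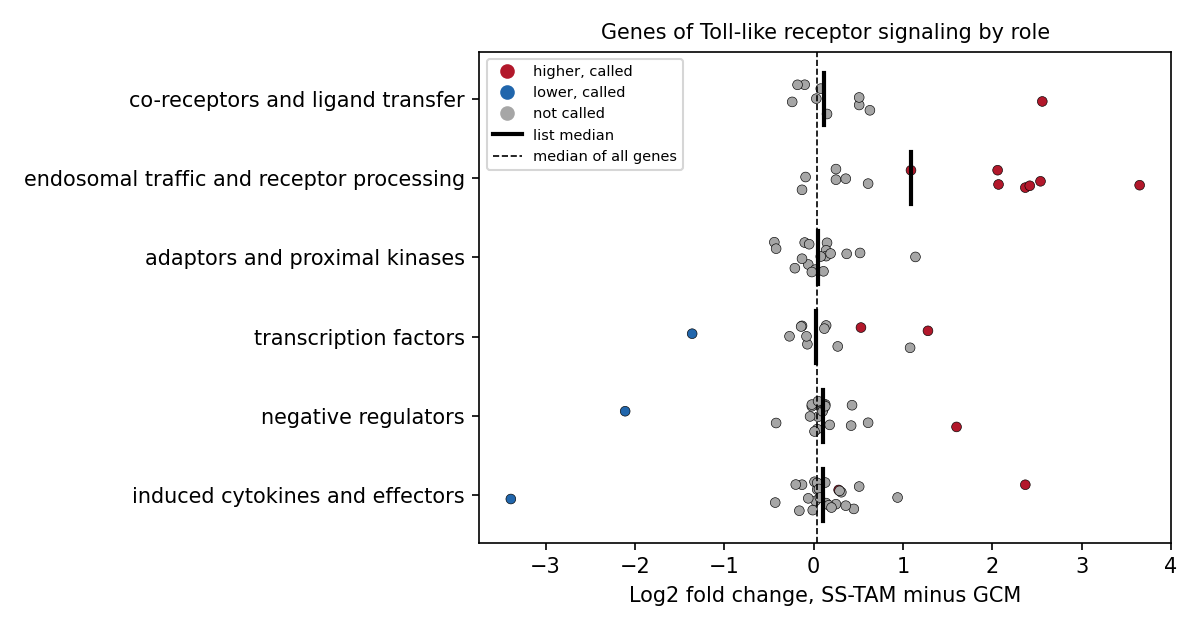
Difference in log2 intensity, SS-TAM minus GCM, for 98 genes of Toll-like receptor signaling on 6 lists by role, as deposited; each point is a gene, color gives the call, black bars are list medians and the dashed line is the median of all genes at 0.04. Endosomal traffic and receptor processing has its median at 1.09 and the other lists at 0.03 to 0.12; scaled to core macrophage markers, all genes together shift to a median of -1.48.

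Co-receptors and ligand transfer proteins had 1 of 10 measured genes called, a share like the 9.9% of all genes. Cd36, a scavenger receptor that hands ligands to Tlr2 with Tlr6, had intensities of 131.1, 42.3 and 45.8 in SS-TAMs, against 11.8, 11.5 and 9.1 in GCMs. The groups did not overlap and SS-TAM replicate 1 was highest, as for Tlr13. Its log2 fold change was 2.56 (SE 0.45, limma adjusted p = 0.023), and the call was lost without SS-TAM replicate 3 or without any 1 of the GCM arrays, with adjusted p up to 0.096. Of the partners of Tlr4, Cd14 was at 5.3, 5.8 and 5.5 in SS-TAMs and 5.6, 5.4 and 5.2 in GCMs, under the limit on every array. Ly96, which encodes the lipopolysaccharide-binding subunit MD-2, was at 4.7, 5.5 and 10.0 in SS-TAMs and 7.2, 6.4 and 6.9 in GCMs, with 1 SS-TAM array above the limit. At this level a change of Cd14 or Ly96 cannot be read. Lbp, also on the list, was at 7.0, 9.8 and 7.5 in SS-TAMs and 5.6, 5.4 and 5.9 in GCMs. Its groups did not overlap, with 1 SS-TAM array above the limit (limma adjusted p = 0.072). Cd180, a related receptor that pairs with the product of Ly86, was at 71.7, 40.7 and 43.0 in SS-TAMs and 48.8, 24.4 and 28.4 in GCMs, which overlap (limma adjusted p = 0.29).

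On the list of endosomal traffic and receptor processing, Unc93b1, the chaperone that carries nucleic acid-sensing receptors to endosomes, had intensities of 61.7, 51.9 and 53.1 in SS-TAMs, against 15.2, 11.9 and 12.9 in GCMs. All SS-TAM arrays were far above all GCM arrays, by more than the spread within either group. The log2 fold change of Unc93b1 was 2.06 (SE 0.12, limma adjusted p = 0.001) and 0.54 with arrays scaled to core macrophage markers. Slc15a3, an endolysosomal transporter of histidine and bacterial peptides, had intensities of 100.2, 72.8 and 100 in SS-TAMs, against 21.4, 21.1 and 21.9 in GCMs (log2 fold change 2.07, SE 0.13, limma adjusted p = 0.0014). Lgmn, the gene of the protease legumain, had 662.7, 407.4 and 632.7 in SS-TAMs, against 51.0, 43.7 and 38.6 in GCMs (log2 fold change 3.65, SE 0.21, limma adjusted p = 0.0011). The cathepsin genes Ctsb, Ctsl and Ctss also rose, by log2 fold changes of 2.54, 2.42 and 1.09, although Ctss was at -0.43 with arrays scaled to core macrophage markers. Ctsk rose at least 3.14-fold against the limit, which no GCM array passed, and of the arrays left out in turn its call held only without SS-TAM replicate 2. These proteases and Lgmn also serve general lysosomal degradation. The receptor chaperones of the endoplasmic reticulum were not called: Hsp90b1, which encodes gp96, had a log2 fold change of -0.09 (SE 0.14, 95% interval -0.43 to 0.25), and its co-chaperone Cnpy3 had 0.61 (SE 0.14, limma adjusted p = 0.051).

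**Figure D4:**
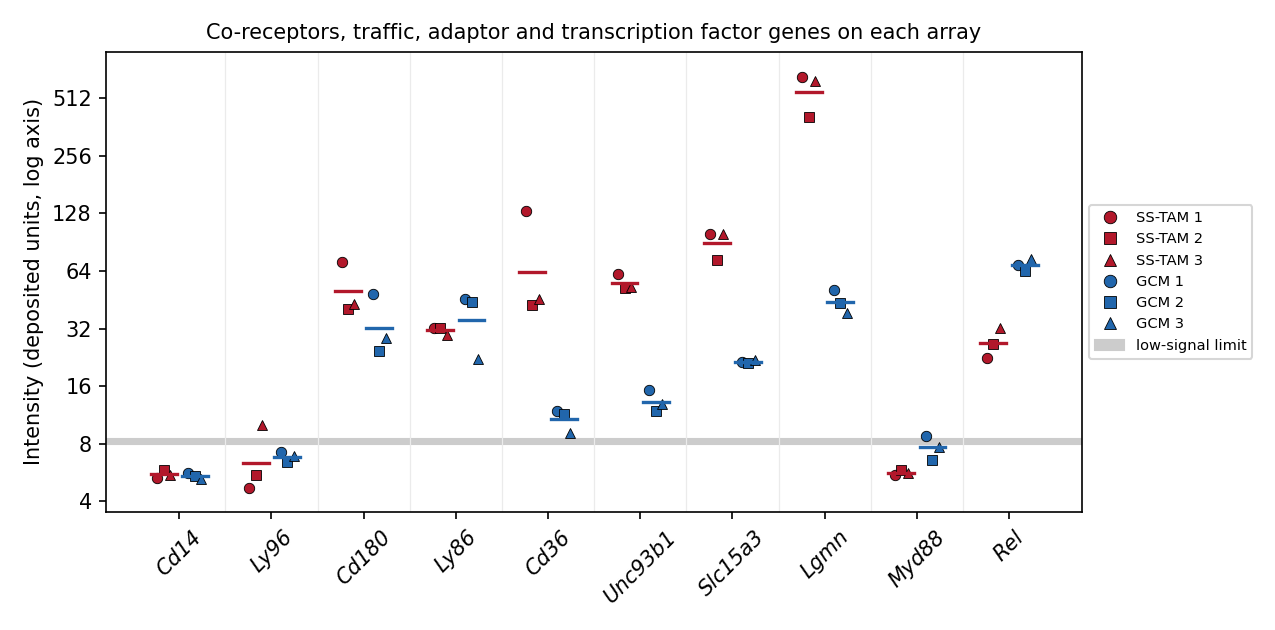
Deposited intensity (log axis) on each array for 10 genes that work with the receptors; points are arrays, horizontal lines are geometric means of 3 arrays, SS-TAM left of GCM, and the gray band spans the low-signal limits. Cd36, Unc93b1, Slc15a3 and Lgmn lie higher in SS-TAMs and Rel lower without overlap, which scaling to core macrophage markers did not turn round, and Cd14 lies under the limit on every array.

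Of 18 measured adaptors and proximal kinases, 0 were called by limma, against 9.9% of all genes. An unadjusted limma p under 0.05 held for 4 of the 18, against 25.7% of all genes. With a trended, robust variance 2 were called, and with array weights 0. Myd88, the adaptor of nearly all Toll-like receptors, was at 5.5, 5.8 and 5.6 in SS-TAMs and 8.8, 6.6 and 7.7 in GCMs, with only GCM replicate 1 above the limit. The largest log2 fold change on the list was 1.14 (SE 0.32, limma adjusted p = 0.087), of Pik3ap1, an adaptor that links the receptors to phosphoinositide 3-kinase. Map3k7, the gene of the kinase TAK1, was at 30.5, 26.5 and 30.5 in SS-TAMs and 28.6, 30.5 and 31.4 in GCMs, which overlap. Among 12 transcription factors, Rel, the gene of the NF-kB subunit c-Rel, had intensities of 22.4, 26.7 and 32.3 in SS-TAMs, against 68.9, 63.9 and 73.8 in GCMs. Rel fell by 1.36 on the log2 scale (SE 0.14, limma adjusted p = 0.005) and kept its call without any 1 array; it is expressed at high level in lymphocytes as well. The AP-1 gene Jun rose as deposited, by a log2 fold change of 1.28, and its partner Fos by at least 1.16-fold against the limit, which no GCM array passed, but both had fitted differences below 0, of -0.25 and -0.99, with arrays scaled to core macrophage markers. Jun lost its call on leaving out any 1 array except SS-TAM replicate 2, and Fos lost its call without any 1 of the GCM arrays.

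Negative regulators had 1 of 19 measured genes higher and 1 lower, shares like the 5.16% and 4.74% of all genes. Cyld, a deubiquitinase that restrains NF-kB signaling, had intensities of 24.3, 24.1 and 24.8 in SS-TAMs, against 77.2, 132.2 and 113.6 in GCMs, and fell by 2.11 on the log2 scale (SE 0.20, limma adjusted p = 0.0035). Cd300a, an inhibitory receptor for phosphatidylserine, had 35.4, 29.8 and 45.3 in SS-TAMs, against 12.3, 11.8 and 11.7 in GCMs (log2 fold change 1.6, SE 0.15, limma adjusted p = 0.0037), and was at 0.08, not called, with arrays scaled to core macrophage markers. Of 26 induced cytokine and effector genes, Ccl3, a chemokine gene, had intensities of 48.0, 30.5 and 19.0 in SS-TAMs, against 5.9, 5.8 and 5.9 in GCMs. It was at least 3.7-fold higher against the limit (fitted log2 difference 2.37, SE 0.32, limma adjusted p = 0.011), and the call was lost without GCM replicate 2 or GCM replicate 3. Ccl5, a chemokine gene that T cells also express, had 28.1, 22.1 and 27.7 in SS-TAMs, against 302.6, 257.5 and 256.5 in GCMs (log2 fold change -3.39, SE 0.12, limma adjusted p = 0.00032). Il27 was called higher at a log2 fold change of 0.28 (SE 0.06, limma adjusted p = 0.034), and at -1.24 with arrays scaled to core macrophage markers. Its call was lost without any 1 of the GCM arrays, with quantile normalization, median centring, dim genes left out, a trended, robust variance or a replicate block, at limma adjusted p up to 0.13. Tnf was at 8.3, 9.0 and 8.9 in SS-TAMs and 7.5, 8.2 and 8.2 in GCMs, close to the limit, and Il6, Il10, Il12b, Ifnb1 and Nos2 were under the limit on every array of both groups.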

How the data were processed

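Laser-captured macrophages of 6 mice (3 SS-TAM, 3 GCM; 1000 cells a mouse) were profiled after WT-Ovation Pico amplification on Affymetrix Mouse Gene 1.0 arrays, 1 per mouse. The authors deposited probe set intensity values on a linear scale with 1 decimal; RMA (probe summary and normalization between arrays) and limma stand in the submitters' processing notes (versions not given in the sources used here). Since the values are linear, log2 of the deposited intensities was taken first. Of 28944 probe sets, 21789 named 1 gene, 1621 several and 5534 none here; 21698 were matched to RefSeq by gene ID. The brightest probe set by mean over all arrays stood for each of 19938 genes.

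SS-TAM and GCM arrays were tested against each other by limma (version 3.58.1, under R 4.3.3; lmFit, eBayes, two-sided, no covariate) with Benjamini-Hochberg adjustment and a threshold of 0.05. The procedure was tested on simulated arrays. Precision is limited by the number of arrays; exact permutation of 3 against 3 cannot go under p = 0.1. A fold against a group not above the low-signal limit on any of its arrays is the geometric mean of the other group over that of, per array, the higher of limit and value.

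All members are described; from each list, up to 4 called genes a direction by smallest adjusted p were to be named, or the 2 brightest where none was called, and for each called member the 3 genes of highest r. Other list genes named here (Cd14, Ly96, Lbp, Cd180, Ly86, Hsp90b1, Cnpy3, Myd88, Ctsk, Ctss, Ctsl, Tnf, Il6, Il10, Il12b, Ifnb1 and Nos2) were chosen after their values were seen. The members and lists were chosen with earlier results of these data known. Alternatives covered array weights, a replicate block, leaving out each array, scaling between arrays, dim genes, the choice of probe set, a trended variance, a fold criterion of 2 and the percentile of the limit.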

Additional observations from a re-analysis of the deposited data

How the results depend on the processing

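Scaling each array to 19 core macrophage markers (without Cd68 and Csf1r) moved the median log2 fold change of all genes to -1.48, from 0.04 as deposited, and with it Tlr2 to -0.43, Tlr3 and Tlr6 to -1.47, Tlr7 to -0.63 and Tlr9 to -0.91. Values of Tlr3, Tlr4, Tlr6, Tlr7 and Tlr8 in this paragraph are fitted differences against GCMs not above the low-signal limit, not folds. Lower bounds were not computed under this scaling. This scaling shifts every gene of an array alike, so differences from that median cannot change. Tlr4 stayed at 2.05, Tlr8 at 1.95, Tlr2 at 1.05 and Tlr1 at -0.72 relative to it, which is no further test. Under this scaling 3 receptors were called higher (Tlr4, Tlr8 and Tlr13) and 6 lower, against 3 and 1 as deposited. Pathway genes had 8 higher and 87 lower, against 13 and 3, and all genes 102 higher and 19655 lower, against 1028 and 946. With this scaling limma gave every receptor an SE of 0.21, whereas as deposited it was 0.61 for Tlr13 and 0.09 for Tlr6. Its calls are therefore not comparable with those as deposited. Quantile normalization gave Tlr3 -0.02, and median centring gave Tlr3 and Tlr6 -0.01 and 5 pathway genes lower. With array weights or at least 2-fold, 0 receptors were called lower; the fold criterion left 279 genes higher and 470 lower. Tlr7 passed with a trended, robust variance (adjusted p = 0.038 by limma) and with array weights (0.036), and Tlr13 passed where dim genes were left out (0.035 over 6711 genes), a filter under which Tlr3, Tlr6 and Tlr7 had no value. The 99th percentile as limit left 2 receptors above it on all GCM arrays, against 4. At the 90th percentile 6 were above it there, among them Tlr4, at 6.9, 8.1 and 8.3 against limits of 6.61, 6.7 and 6.8. The statement that GCMs were not above the limit for Tlr4 therefore depends on the percentile.

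On leaving out 1 array, receptors called lower numbered 0 to 0 and called higher 2 to 4, pathway genes higher 7 to 17, all genes higher 271 to 1159 and lower 399 to 796, Tlr6 ran from -0.01 to 0.13 and Tlr3 from -0.04 to 0.19 on the log2 scale. The smallest counts of all genes came without GCM replicate 2. Replicate numbers are shared by both groups, but the labels tie them to no litter or batch, and deviations of same-numbered arrays correlated at 0.0904, 0.087 and 0.0192, each array best with its own number. With a replicate block, limma called 0 receptors lower (Tlr1 adjusted p = 0.081), 4 higher (Tlr9 added at 0.025), 611 genes higher and 708 lower. The cause of these changes was not tested.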

Other observations

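Tlr12, which is not among the listed receptors and whose product senses profilin of parasites together with the product of Tlr11 in mice, had intensities of 5.8, 6.1 and 5.6 in SS-TAMs, against 6.2, 6.1 and 6.1 in GCMs, under the low-signal limit on every array. Irf7, an interferon-induced factor of endosomal receptor signaling, had 19.0, 13.8 and 7.4 in SS-TAMs, against 6.2, 5.9 and 5.6 in GCMs, without overlap and at least 1.52-fold higher against the limit, with 2 of 3 SS-TAM arrays above it (limma adjusted p = 0.11). Cd86, a costimulatory gene induced by the receptors, had 26.9, 34.0 and 33.5 in SS-TAMs, against 45.3, 41.2 and 40.4 in GCMs, without overlap (log2 fold change -0.43, SE 0.11, limma adjusted p = 0.065). Il1a had 5.7, 15.2 and 15.4 in SS-TAMs, against 5.6, 6.2 and 5.4 in GCMs, so that SS-TAM replicate 1, highest for Tlr13 and Cd36, was the SS-TAM array under the limit. These genes were chosen after their values were seen.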
